A study of Mus musculus with 2 samples.

Results

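The cells described here are insulin-producing islet cells in which the RNA of the insulin genes Ins1 and Ins2 made up at least 20% of all unique molecular identifiers (UMIs, each standing for 1 captured RNA molecule). They were chosen by measured values, the insulin, hormone and mitochondrial RNA of each cell, in single-cell RNA libraries of pancreatic islets. A gated cell had at least 500 detected genes, at most 15% mitochondrial UMIs, at least 5000 UMIs, and more insulin UMIs than 4 times the sum of Gcg, Sst, Ppy and Pyy, hormones of the other endocrine cells. Of 17801 barcodes in both libraries, 7379 passed this gate, and 2251 of these reached 20% insulin. In the control library there were 726 such cells, which were 24.9% of the 2914 gated insulin cells (exact 95% interval 23.4 to 26.5%, Clopper-Pearson). In the library labelled SpopβKO there were 1525, or 34.2% of 4465 (32.8 to 35.6%). They are called high-insulin cells and were set against cells of the same gate at 3% to below 20% insulin, 1416 in the control library and 2255 in the other, called comparison cells.

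The islets came from 12-week-old female C57BL/6 mice, either Spop fl/fl, the control, whose Spop alleles carry loxP sites, or SpopβKO, in which Spop, the substrate adaptor of a ubiquitin ligase, is deleted in beta cells. Each genotype had 1 library, made by droplet capture of RNA 3′ ends after the islets had recovered in culture and been dispersed with trypsin. How many mice went into a library, which driver expressed Cre and which exons were removed are not given in the sources used here. With 1 library per genotype there was no replicate and no test, cells are not replicates, and every interval covers counting error only. Spop itself was at 64.2 CPM (counts scaled to a total of 1e+06) in high-insulin cells of the control library and at 102 in those of the SpopβKO-labelled library. Counts of 3′ ends do not show whether particular exons are missing, so both libraries go by their labels.

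Beta cells store insulin in dense-core granules and release it when glucose enters the cell, is metabolised and closes potassium channels. The insulin genes are active together with a set of maturity genes, among them the transcription factor Mafa, the glucose transporter Slc2a2, the glucose-6-phosphatase G6pc2 and the peptide urocortin 3 (Ucn3). Folding of proinsulin loads the endoplasmic reticulum (ER) and engages the unfolded protein response, one arm of which acts through the transcription factors ATF4 and CHOP.

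The control table held 82541585 UMIs in 7768 barcodes, and the SpopβKO-labelled table held 89977773 in 10033. High-insulin cells had median totals of 9971 and 12739 UMIs in the control and SpopβKO-labelled libraries, against 12628.5 and 12629 in comparison cells. After insulin RNA was set aside, 5870 and 8048 UMIs at the median were left for other genes, against 11565.5 and 11482. High-insulin cells showed 2387 and 3105 genes at the median, against 3915 and 3926. When each cell was thinned to 2000 UMIs outside the insulin genes, these medians were 1104 against 1210 and 1158.5 against 1209, with 5 and 1 shallower high-insulin cells left out. Fewer kinds of gene were thus seen in high-insulin cells also at equal depth. The libraries shared 21 barcode sequences, of which 0 were high-insulin cells in both.

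To put regulatory sequence next to genes whose RNA is described, the 250 bases before the annotated start are shown for Ins1 and for 3 maturity genes that were higher in high-insulin cells. They are from RefSeq on GRCm38.p6, each in the direction of its gene. Capitals mark CATCTG or CAGATG, the E-box core known from the insulin genes, and TAAT or ATTA, the core bound by homeodomain proteins.
Ins1, chr19:52264047-52264296, plus strand: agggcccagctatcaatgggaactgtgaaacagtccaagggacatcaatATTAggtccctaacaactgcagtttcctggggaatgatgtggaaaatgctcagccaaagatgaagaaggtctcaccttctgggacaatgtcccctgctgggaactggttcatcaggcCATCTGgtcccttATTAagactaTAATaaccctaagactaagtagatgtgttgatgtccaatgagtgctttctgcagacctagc
G6pc2, chr2:69210823-69211072, plus strand: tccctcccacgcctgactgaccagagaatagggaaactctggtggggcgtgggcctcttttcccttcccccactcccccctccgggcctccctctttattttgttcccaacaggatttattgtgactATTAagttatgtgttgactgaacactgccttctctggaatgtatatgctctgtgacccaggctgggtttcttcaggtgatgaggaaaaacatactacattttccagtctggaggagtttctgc
Ucn3, chr13:3945350-3945599, minus strand: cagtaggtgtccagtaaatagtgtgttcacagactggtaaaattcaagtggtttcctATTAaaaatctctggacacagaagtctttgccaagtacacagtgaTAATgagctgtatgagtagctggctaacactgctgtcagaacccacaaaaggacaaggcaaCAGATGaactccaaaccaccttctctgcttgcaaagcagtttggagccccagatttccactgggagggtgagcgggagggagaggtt
Slc2a2, chr3:28697653-28697902, plus strand: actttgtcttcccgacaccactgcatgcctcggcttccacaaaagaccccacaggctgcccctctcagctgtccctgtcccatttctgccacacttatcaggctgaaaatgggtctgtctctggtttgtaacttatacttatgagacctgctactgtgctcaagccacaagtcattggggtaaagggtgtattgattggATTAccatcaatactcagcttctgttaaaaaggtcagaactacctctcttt
The E-box letters stood 1 time in the windows of Ins1 and of Ucn3 and were in 14.5% of 32817 windows of this length over all genes, both strands counted. The TAAT core stood 3 times before Ins1, 2 times before Ucn3 and 1 time each before G6pc2 and Slc2a2, and it was in 54.9% of all windows. TGCTGAC or GTCAGCA, part of the site bound by MAF proteins, had 0 matches in the windows shown and was in 3.81% of all. In the GENCODE annotation of the same build, all 4 are protein-coding genes, Ins1 at chr19:52264297-52265476, G6pc2 at chr2:69211073-69227841, Ucn3 at chr13:3940688-3945349 and Slc2a2 at chr3:28697903-28731359, the last overlapping 1700112D23Rik on the other strand. Mafa, at chr15:75745490-75748228, and Ins2, at chr7:142678656-142743381, are named without a sequence.

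Insulin RNA was a median of 34.8% of the UMIs of a high-insulin cell in the control library and 33.4% in the SpopβKO-labelled library, with highest values of 84.6% and 76.5%. These shares chose the cells and are a description. In the plot of insulin RNA per cell the share runs on without a gap at 20%. The cells just inside the limit, 63 and 140 at 20% to below 22%, stood next to 82 and 127 cells at 18% to below 20%. Across that line Mafa was 217 CPM outside and 234 inside in the control library, and 449.8 outside and 655 inside in the SpopβKO-labelled library. Nupr1, a stress-induced transcription regulator, was 642 outside and 553 inside in the control library, and 949.7 outside and 658 inside in the other. All values next to the limit come from few cells and carry no intervals. Small differences, such as that of Mafa in the control library, are therefore not read as a direction. The point values of the other maturity genes did not all run the same way. In the control library G6pc2 was 66.9 outside and 43.6 inside, Ucn3 87.8 and 63.0, and Prss53, a serine protease, 92.0 and 67.9, while Slc2a2 was 42.9 and 53.3. In the SpopβKO-labelled library all 4 were higher inside, with G6pc2 at 291 and 422, Ucn3 at 114 and 166, Prss53 at 241 and 299, and Slc2a2 at 124 and 178.

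**Figure D1:**
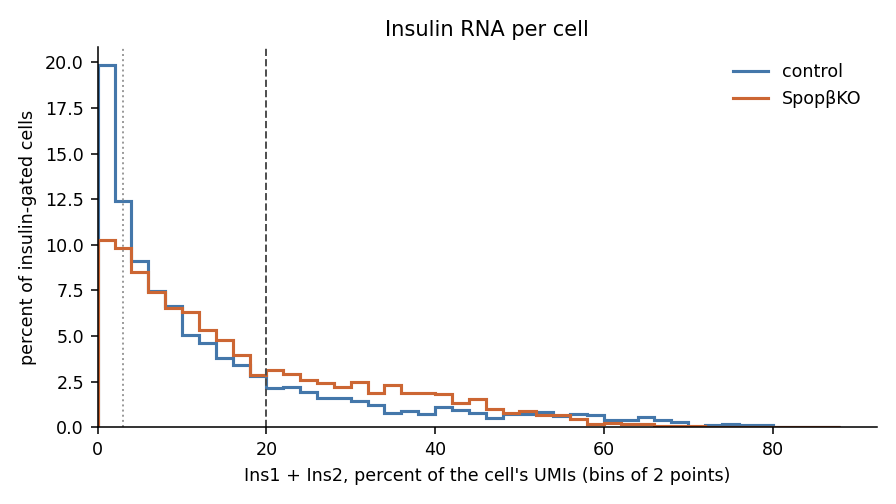
Percent of gated insulin cells (vertical) by the percent of a cell's UMIs from Ins1 and Ins2 (horizontal, bins of 2 points) in the control (blue) and SpopβKO-labelled (orange) libraries, with a dotted line at 3% and a dashed line at 20%. Neither curve has a break at 20%, and 24.9% of control and 34.2% of SpopβKO-labelled cells lie to the right of it.

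The 2 insulin genes were not in the same proportion in the libraries. Ins2 made 33.3% and Ins1 4.92% of all UMIs of control high-insulin cells, while in the SpopβKO-labelled library Ins2 made 24.2% and Ins1 10.7%. The Ins1 part of a cell's insulin UMIs had a median of 6.94% in control high-insulin cells and 5.61% in comparison cells. In the SpopβKO-labelled library it was 25.5% and 9.57%. Ins1 thus took a larger part of insulin RNA in high-insulin than in comparison cells of both libraries, and by more in the library labelled SpopβKO. Insulin RNA was a median of 0.251% and 0.826% of UMIs in cells gated by Gcg as alpha cells.

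For every gene the UMIs of all cells in a group were added up, and CPM values are relative to the total of that group without Ins1 and Ins2. The other beta cell markers were detected and were higher than in comparison cells in both libraries. Mafa, an activator of insulin transcription, was at 477 CPM (95% interval 459 to 495) in control high-insulin cells and at 202 in comparison cells, a log2 ratio of 1.24 (1.17 to 1.31). The SpopβKO-labelled library had 892 CPM (877 to 908) and 213, a log2 ratio of 2.06 (2.02 to 2.11). The level in comparison cells was nearly the same in both libraries, and the level in high-insulin cells was not. G6pc2, which opposes glucokinase, was at 143 and 78.1 CPM (log2 0.87, 0.75 to 0.99) in the control library and at 553 and 195 CPM (1.5, 1.45 to 1.55) in the other. Ucn3, released together with insulin, was at 146 and 78.1 CPM (0.90, 0.78 to 1.02) in the control library and at 234 and 77.1 CPM (1.6, 1.53 to 1.68) in the other. All 3 ratios were larger in the SpopβKO-labelled library, a difference that was not tested.

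Counted over cells at an equal 2000 UMIs outside insulin, the same markers were found in a larger share of high-insulin cells. Mafa RNA was found in 23.6% of control high-insulin cells, 15.2% of comparison cells and 2.71% of alpha-gated cells. The SpopβKO-labelled shares were 45.6%, 21.9% and 3.14%. Without thinning they were 40.4%, 47.9% and 10.9% in the control library and 60.7%, 54.1% and 12.0% in the other, so that the order of the control groups turned with depth. The median totals behind the unthinned shares were 9971, 12628.5 and 8422.5 UMIs in the control library and 12739, 12629 and 7318 in the SpopβKO-labelled library. G6pc2 was found after thinning in 10.4%, 7.84% and 1.55% of the control cells and in 41.5%, 21.5% and 1.57% of the SpopβKO-labelled cells (unthinned 15.6%, 24.6% and 5.50%, and 55.9%, 49.9% and 11.2%). Slc2a2 was found in 11.4%, 6.21% and 0.310% and in 29.9%, 12.0% and 0.786% (unthinned 19.1%, 24.4% and 2.79%, and 51.0%, 37.7% and 4.72%). At that depth most high-insulin cells of the control library showed no UMI of any one of these genes.

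At a mean of at least 25 CPM, 139 of 5829 genes (2.38%) were at least 1.5-fold higher and 350 (6%) at least 1.5-fold lower in high-insulin than in comparison cells of the control library. The SpopβKO-labelled library had 197 of 6024 genes (3.27%) higher and 186 (3.09%) lower. Of 5491 genes measured in both, 54 (0.983%) were higher in both and 88 (1.6%) lower in both, while 0 went past 1.5-fold in opposite directions. The groups were split by insulin RNA of the same cells, so these counts describe the cells and test nothing. With insulin RNA left in the scaling total the median of all genes moved by −0.55 and −0.47 (log2), and 16 genes were higher and 3151 lower in the control library and 39 and 2238 in the other. All ratios given here are therefore relative to RNA other than insulin.

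Slc2a2, through which glucose enters the mouse beta cell, was among the single genes higher in both libraries, at 137 CPM in control high-insulin cells and 51.7 in comparison cells (log2 1.41, 1.28 to 1.54). Its levels in the SpopβKO-labelled library were 297 and 82.6 CPM (1.85, 1.78 to 1.92). Trpm5, a calcium-activated cation channel at chr7:143069153-143094642, was at 83.9 and 27.0 CPM (1.64, 1.46 to 1.81) in the control library and at 121 and 37.0 CPM (1.71, 1.6 to 1.82) in the other. Its ratio was nearly the same in both libraries, unlike that of Slc2a2. Mrln, whose small protein restrains the ER calcium pump, was at 51.0 and 12.3 CPM (2.05) in the control library and at 108 and 34.4 CPM (1.66) in the other. Ero1lb, an ER oxidase that drives disulfide bond formation, was at 350.1 and 160.4 CPM (1.13) and at 688 and 218 CPM (1.66). Slc30a8, which loads zinc into insulin granules, had log2 ratios of 0.91 and 0.87.

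Granule proteins formed a second block. Chga, chromogranin A, at chr12:102554969-102565028, was at 5901 CPM in control high-insulin cells and 1894 in comparison cells, a log2 ratio of 1.64 (1.62 to 1.66). Its SpopβKO-labelled levels were 9542 and 4834 CPM, a ratio of 0.98 (0.97 to 0.99). The control ratio was the larger one, the reverse of Mafa. Resp18, a protein of the endocrine secretory pathway, was at 506 and 249 CPM (1.02) in the control library and at 1208 and 671 CPM (0.85) in the other. Pcsk1n, an inhibitor of a prohormone convertase, was at 2209 and 961 CPM (1.2) and at 1509.7 and 889 CPM (0.76). Pcsk2, itself a prohormone convertase, had ratios of 0.45 and 0.74, and Scg5, a chaperone of that enzyme, 0.85 and 0.51.

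The remaining genes of the 15 ranked highest in both were Prss53, a serine protease (1.52 and 1.78), C2cd4b (1.74 and 1.32), Vstm2l (1.24 and 1.26), the carbonic anhydrase Car15 (1.32 and 1.05), the phosphatase inhibitor Ppp1r1a (0.93 and 1.27), the thymosin Tmsb15b2 (0.86 and 1.30) and Txnip. Txnip, an inhibitor of thioredoxin that is induced by glucose, was at 37.7 and 14.0 CPM (1.43) in the control library and at 144 and 61.7 CPM (1.22) in the other. Tmsb15b2 overlaps Tmsb15b1 on the same strand, so its counts are uncertain. Npy, a neuropeptide of immature beta cells, had the largest ratios of the gene lists, 4.1 and 4.29, but rested on few cells. Of its UMIs, 82.6% and 87.3% were in the top 1% of high-insulin cells, and 22 and 57 high-insulin cells had any.

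Genes lower in high-insulin cells included stress and amino acid genes. Nupr1, at chr7:126623249-126630861, was at 399.9 CPM in control high-insulin cells and 869 in comparison cells (log2 −1.12, −1.18 to −1.06). The SpopβKO-labelled levels were 606 and 1531 CPM (−1.34, −1.37 to −1.31). Aldh1l2, a mitochondrial enzyme of folate metabolism, was at 54.6 and 126 CPM (−1.21) in the control library and at 41.5 and 90.9 CPM (−1.13) in the other. Psph, of serine synthesis, had ratios of −1.06 and −1.18, and Got1, the cytosolic aspartate aminotransferase, −0.97 and −0.90. These 4 genes thus differed by similar ratios in the 2 libraries. Gsto1, a glutathione transferase, was at 104 and 255 CPM (−1.30) and at 52.5 and 138 CPM (−1.40), and Entpd2, an enzyme that degrades extracellular ATP, at 71.8 and 184 CPM (−1.35) and at 77.2 and 195 CPM (−1.34). Gsto1 overlaps Cfap43 on the other strand and Entpd2 overlaps Npdc1 on the same strand.

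The others of the 15 lower genes were the teneurin Tenm4 (−1.46 and −1.17), the peptide Adm2 (−1.20 and −1.31), Bzw2 (−1.05 and −1.02), Ciapin1 (−0.98 and −1.26), Avpi1 (−0.95 and −0.94), Fam129a (−1.0 and −1.25), the calcium-binding S100a6 (−0.97 and −1.17), Tmem97 (−0.97 and −0.96) and the siderophore-binding Lcn2 (−1.96 and −2.18). Lcn2 rested on few cells, since 84.4% and 83.5% of its UMIs were in the top 1% of high-insulin cells and 20 and 69 of them had any. All 30 of these genes kept their direction in both libraries under every alternative scaling, gate, limit and weighting tried over whole groups, while within bins of depth or mitochondrial share 2 turned, Mafa in the shallowest control cells (−0.28, −0.54 to −0.01) and Txnip in SpopβKO-labelled cells below 1% mitochondrial UMIs (−0.13, −0.58 to 0.29). Under a scaling total that includes insulin RNA, 10 of the 15 higher genes in the control library and 12 in the SpopβKO-labelled library were still past 1.5-fold.

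Gene lists were described by the number of genes higher and by their median log2 ratio, at a mean of at least 10 CPM. Over all genes the median was −0.16 in the control library, with 31% of genes higher and 2.77% and 9.14% past 1.5-fold higher and lower. In the SpopβKO-labelled library it was −0.07, with 39.2% higher and 3.84% and 3.77% past that fold. Of 16 mature beta cell markers 15 were higher in each library, 10 and 14 of them past 1.5-fold, with medians of 0.84 and 1.32. The exception was Cox6a2, a subunit of cytochrome oxidase, at −0.81 and −1.31. Nnat, a small membrane protein that aids insulin secretion, had the largest ratios, 2.49 and 2.36, from 52.0 and 9.28 CPM in the control library and 32.0 and 6.24 CPM in the other.

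Beta cell transcription factors did not move as one list with the maturity markers. In the control library 8 of 17 were higher with a median of −0.08, and in the SpopβKO-labelled library 17 of 18 with a median of 0.35 (−0.10 with insulin RNA in the scaling total). Mlxipl, the glucose-responsive factor ChREBP, had ratios of 0.87 and 0.86 and Neurod1 of 0.33 and 0.31, while Insm1 was lower at −0.27 and −0.33. Pdx1 and Nkx6-1, defining factors of beta cells chosen after their values were seen, had ratios of 0.12 and −0.13 in the control library and of 0.81 and 0.57 in the other. In the control library their intervals were −0.04 to 0.29 and −0.23 to −0.03, so Mafa stood apart from them there.

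Granins and granule cargo were higher in 10 of 13 genes with a median of 0.75 in the control library, and in 11 of 13 with 0.83 in the SpopβKO-labelled library. Prohormone processing genes were higher in 10 of 13 in each library, with medians of 0.44 and 0.51, the first at −0.11 with insulin RNA in the scaling total. Exocytosis genes had medians of 0.04 and 0.24 (the latter −0.22 under that scaling), with Rab3a, a vesicle GTPase, at 0.77 and 0.79, Sytl4 (granuphilin) at 0.49 and 1.05, Snap25 at 0.41 and 0.47, and Syt4 lower at −0.66 and −0.50. Subunits of the granule proton pump were higher in 4 and 2 of 15, with medians of −0.19 and −0.15, near those of all genes. Channels of glucose-stimulated secretion were higher in 4 of 12 in the control library (−0.11) and in 11 of 13 in the other (0.27, and −0.19 under that scaling). Secretory cargo and its processing thus stood higher, while the pump that acidifies the granule did not.

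The lists of the ER stood close to all genes. Medians were −0.11 and 0.08 for translocation and N-glycosylation (11 and 22 of 33 higher), −0.05 and 0.11 for chaperones (8 and 16 of 20), −0.14 and 0.09 for disulfide isomerases and oxidases (4 of 16 and 11 of 17, with Ero1lb alone past 1.5-fold), −0.08 and 0.04 for ER-associated degradation, −0.11 and 0.06 for COPII and COPI transport, and −0.07 and −0.13 for sensors and factors of the unfolded protein response. Hspa5, the main ER chaperone BiP, was at 1778 CPM in control high-insulin cells and 2236 in comparison cells (−0.33), and at 1199 and 1666 CPM (−0.47) in the SpopβKO-labelled library. Dnajc3, its co-chaperone, was at 0.20 and 0.29, and Fkbp2, an ER prolyl isomerase, at 0.43 and 0.54. Ssr4, of the translocon, was at 0.62 and 0.47. Atf6, a sensor of the response, was at −0.39 and −0.42, and Eif2ak3, the sensor PERK, at 0.72 and 0.21. In the control library 33.3% of translocation and 40% of chaperone genes were higher, against 31% of all genes. In the SpopβKO-labelled library 66.7% and 80% were higher, against 39.2% of all genes, by small ratios. The chaperone median of that library was −0.35 with insulin RNA in the scaling total.

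Targets of ATF4 and CHOP were lower nearly throughout. In the control library 26 of 28 were lower, 12 of them past 1.5-fold, with a median of −0.55. In the SpopβKO-labelled library 28 of 28 were lower, 17 past 1.5-fold, with a median of −0.62. Aldh1l2, Nupr1, Psph and Psat1 (−1.37 and −1.04), the last 2 of serine synthesis, had the largest ratios shared by both libraries. Herpud1 at 0.07 and Slc38a2, an amino acid transporter, at 0.23 were the exceptions in the control library, and both were lower in the other, at −0.35 and −0.13. Trib3, an inhibitor of signalling induced by CHOP and chosen after its values were seen, was at 90.8 and 162 CPM (−0.84) and at 45.7 and 115 CPM (−1.33). The cytosolic tRNA synthetases, many of which are induced by ATF4, were lower in 18 and 16 of 19, with medians of −0.35 and −0.46, among them Eprs at −0.66 and −0.79 and Lars at −0.76 and −0.66.

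**Figure D2:**
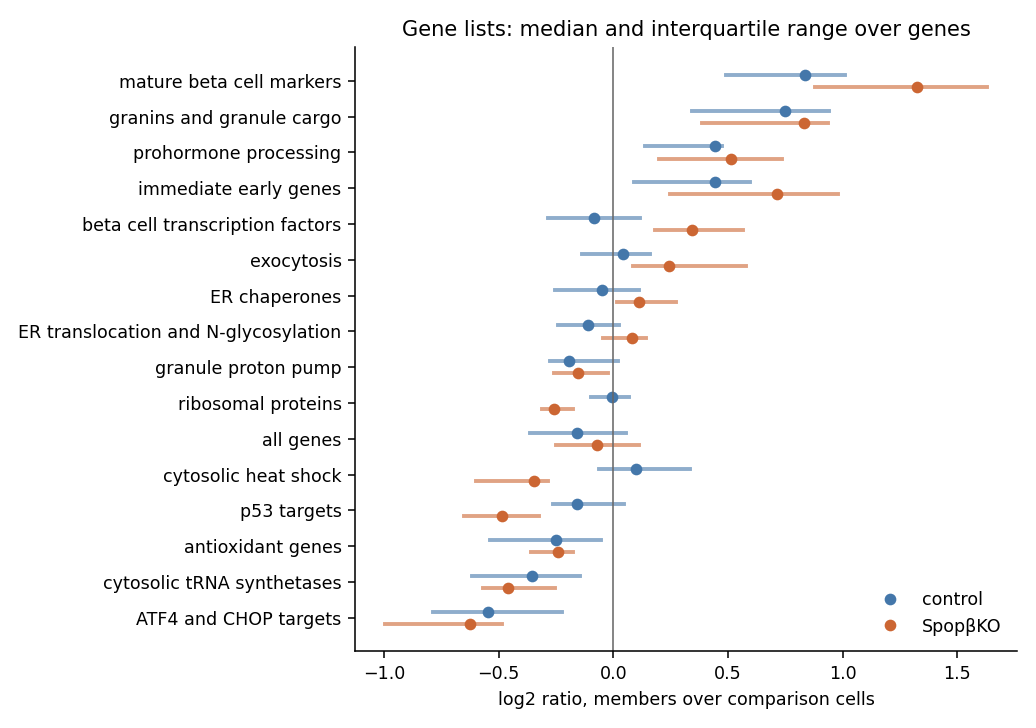
Median log2 ratio of high-insulin to comparison cells (points) and interquartile range over genes (bars) for gene lists, in the control (blue) and SpopβKO-labelled (orange) libraries, with "members" standing for high-insulin cells. Of the lists drawn, mature beta cell markers lie highest at 0.84 and 1.32 and targets of ATF4 and CHOP lowest at −0.55 and −0.62, with all genes at −0.16 and −0.07.

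Other lists showed smaller or unlike values. Immediate early genes were higher in 10 of 13 and 13 of 15, with medians of 0.44 (−0.11 with insulin RNA in the scaling total) and 0.71, among them Junb at 1.38 and 0.83 and Fos at 0.59 and 1.06. Antioxidant genes were lower in 16 of 19 and 14 of 17 (−0.25 and −0.24), with Hmox1 at −0.60 and −1.14 and Gpx3 higher at 0.44 and 0.48. Targets of p53 had a median of −0.16 in the control library, with 8 of 12 lower. That is the level of all genes there (−0.16, 31% higher). In the SpopβKO-labelled library 11 of 13 were lower (−0.48, against −0.07 for all genes). Bax was at −0.56 and −0.78, and Btg2 was higher at 0.71 and 0.48. Cytosolic heat shock genes had medians of 0.10 and −0.35. Ribosomal protein genes were at −0.01 in the control library, while 78 of 79 were lower in the SpopβKO-labelled library with a median of −0.26. Medians were −0.05 and −0.09 for nuclear genes of oxidative phosphorylation, −0.05 and 0.37 for ChREBP-responsive genes, −0.20 and 0.21 for cholesterol synthesis, −0.14 and 0.01 for glycolysis, 0.27 and 0.13 for interferon response, −0.08 and −0.14 for MHC class I presentation, 0.46 and 0.19 for 5 genes of immature beta cells, and 0.26 and 0.29 for 6 nuclear or ribosome-like RNAs. Of 17 genes usually repressed in beta cells 3 reached 10 CPM in the control library, Cat (catalase) at −0.92, Zyx at −0.87 and Lmo4 at −1.07, and fewer than 3 did in the SpopβKO-labelled library. With insulin RNA in the scaling total the medians of the interferon, immature and ribosome-like lists were below 0 in both libraries, and those of cholesterol synthesis and ChREBP-responsive genes in the SpopβKO-labelled library.

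Along insulin share the maturity genes took a different course in the 2 libraries. In the control library Mafa was at 224, 204, 169 and 210.3 CPM in comparison cells at 3 to 5, 5 to 10, 10 to 15 and 15 to 20% insulin, and at 340.1, 448 and 725 CPM in high-insulin cells at 20 to 30, 30 to 40 and at least 40%. In the SpopβKO-labelled library the same steps gave 108, 169, 262 and 336 CPM, then 713, 997 and 1091. Below 20% in the control library Mafa was thus lowest at 10 to 15% and no higher at 15 to 20% than at 3 to 5%. In the other library it was higher at each step. G6pc2 in the control library was at 102, 79.3, 60.0 and 63.3 CPM below 20% and at 108, 113 and 221 above it, and Ucn3 at 100.6, 75.2, 59.2 and 78.4 and then 104, 124 and 232. Both were thus lower in the middle of the range than at its start there. In the other library G6pc2 was higher at each step, from 128 to 681 CPM, while Ucn3 was at 60.8, 62.6, 97.6 and 90.7 CPM below 20% and at 178, 256 and 311 above it. Nupr1 ran the other way, from 1120.1 to 188 CPM in the control library and from 1768 to 468 CPM in the SpopβKO-labelled library. Chga went from 1575 to 9437 CPM and from 3605 to 12100.5 CPM over the same range.

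**Figure D3:**
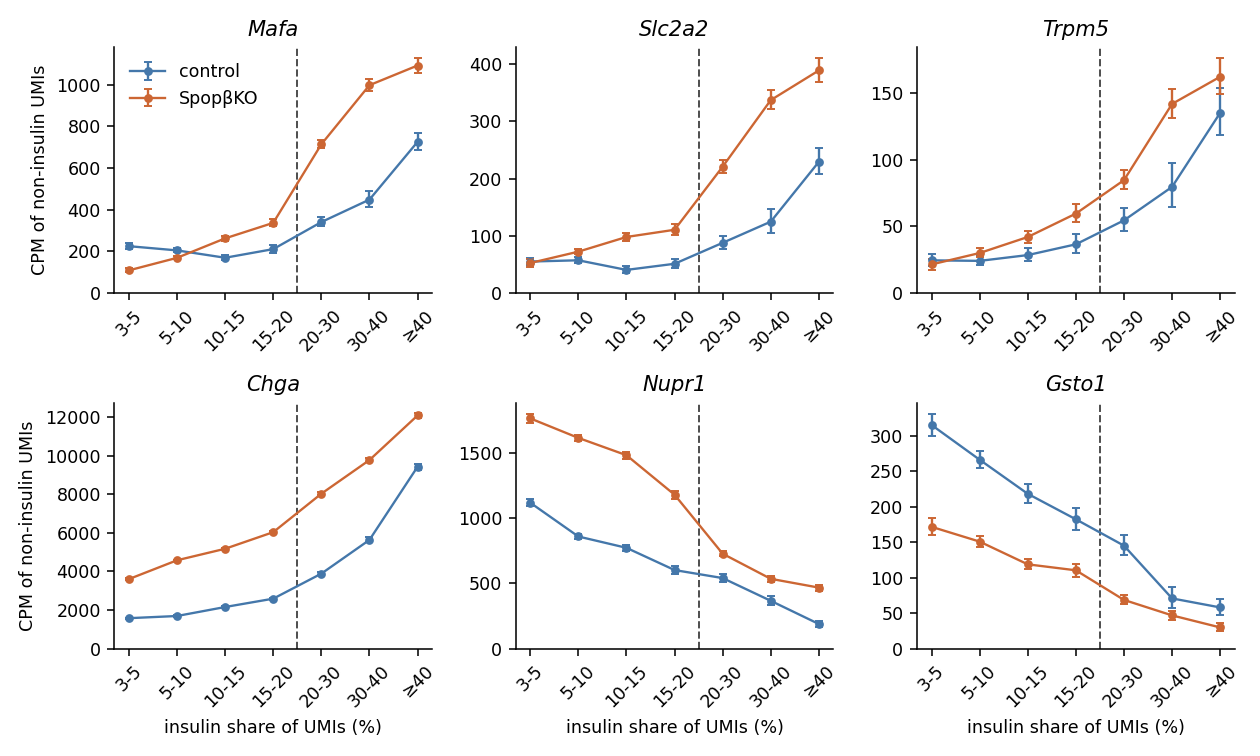
CPM of 6 genes (vertical, exact 95% Poisson intervals) by insulin share of the cell (horizontal, 7 bins) in the control (blue) and SpopβKO-labelled (orange) libraries, with a dashed line at 20%. Mafa, Slc2a2, Trpm5 and Chga are highest and Nupr1 and Gsto1 lowest in the last bin of both libraries, as for Mafa with 725 and 1091 CPM.

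The cells with the highest insulin share differed in RNA content. At 50% insulin or more there were 181 control cells with a median of 1456 genes and 170 SpopβKO-labelled cells with 2307.5. In these control cells Gm42418, a transcript at chr17:39846958-39848788 that overlaps AY036118 on the other strand and carries ribosome-like sequence, was at 54654 CPM. Over all high-insulin cells it was at 34193 CPM, against 17460 in comparison cells, in the control library and at 8077 against 5968 CPM in the other. Its part in the other differences was not tested.

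High-insulin cells varied strongly along the share of mitochondrial UMIs, which had a median of 0.757% in the control library and 2.02% in the SpopβKO-labelled library (1.08% and 1.75% in comparison cells). Below 1% lay 450 control cells, 62.0% of high-insulin cells, and 414 SpopβKO-labelled cells, 27.1%. At 2 to 5% lay 82 and 454 cells, and at 5 to 15% 45 and 313. Mafa in control high-insulin cells was at 67.9, 219, 1092 and 2551 CPM in the bins below 1, 1 to 2, 2 to 5 and 5 to 15%, and in SpopβKO-labelled cells at 122, 255, 1235 and 1629. Its level thus differed far more along the mitochondrial share than between high-insulin and comparison cells. In comparison cells it was at 56.3, 61.6, 239 and 971 CPM and at 68.5, 100.8, 235 and 681.

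Set against comparison cells within these bins, the log2 ratio of Mafa was 0.27 (0.03 to 0.51), 1.83, 2.19 and 1.39 in the control library and 0.84 (0.65 to 1.03), 1.34, 2.40 and 1.26 in the SpopβKO-labelled library. G6pc2 in the lowest bin of the control library was at 6.53 CPM in high-insulin and 14.4 in comparison cells, from 20 and 119 UMIs, a ratio of −1.14 (−1.90 to −0.45). In the following bins it was 1.42, 2.07 and 0.84. The direction of G6pc2 thus turned in the bin that held most control high-insulin cells. Slc2a2 had ratios of 0.21 (−0.34 to 0.75), 1.81, 2.49 and 1.5 and of 0.26 (−0.11 to 0.63), 0.92, 2.10 and 1.16. The median over mature beta cell markers was 0.27, 1.06, 1.46 and 1.02 in the control library and 0.46, 0.65, 1.54 and 0.85 in the other, lowest in both libraries below 1%.

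Trpm5 and Chga were higher also where the ratios of Mafa and Slc2a2 were small. Trpm5 had ratios of 1.45, 1.63, 2.07 and 1.92 in the control library and 1.31, 1.54, 1.96 and 1.23 in the other, and Chga of 1.67, 1.75, 1.82 and 1.54 and of 0.84, 0.92, 1.11 and 0.44. Both genes were thus higher in high-insulin cells of every bin, by the least below 1% for Trpm5 in the control library and at 5 to 15% for Chga in both. Granins and granule cargo had medians of 0.70, 0.83, 0.97 and 0.79 and of 0.64, 0.65, 0.84 and 0.44. Targets of ATF4 and CHOP were lower in every bin, with medians of −0.50, −0.54, −0.49 and −0.50 in the control library and −0.70, −0.63, −0.80 and −0.39 in the other. Nupr1 was lower by more in the 2 bins above 2% mitochondrial UMIs than in the 2 below, with ratios of −0.85, −0.95, −2.03 and −2.20 and of −0.46, −0.64, −2.46 and −2.19. Beta cell transcription factors had medians of −0.15, −0.08, 0.22 and 0.34 and of −0.43, −0.18, 0.54 and 0.24, and so turned sign along the bins in both libraries.

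**Figure D4:**
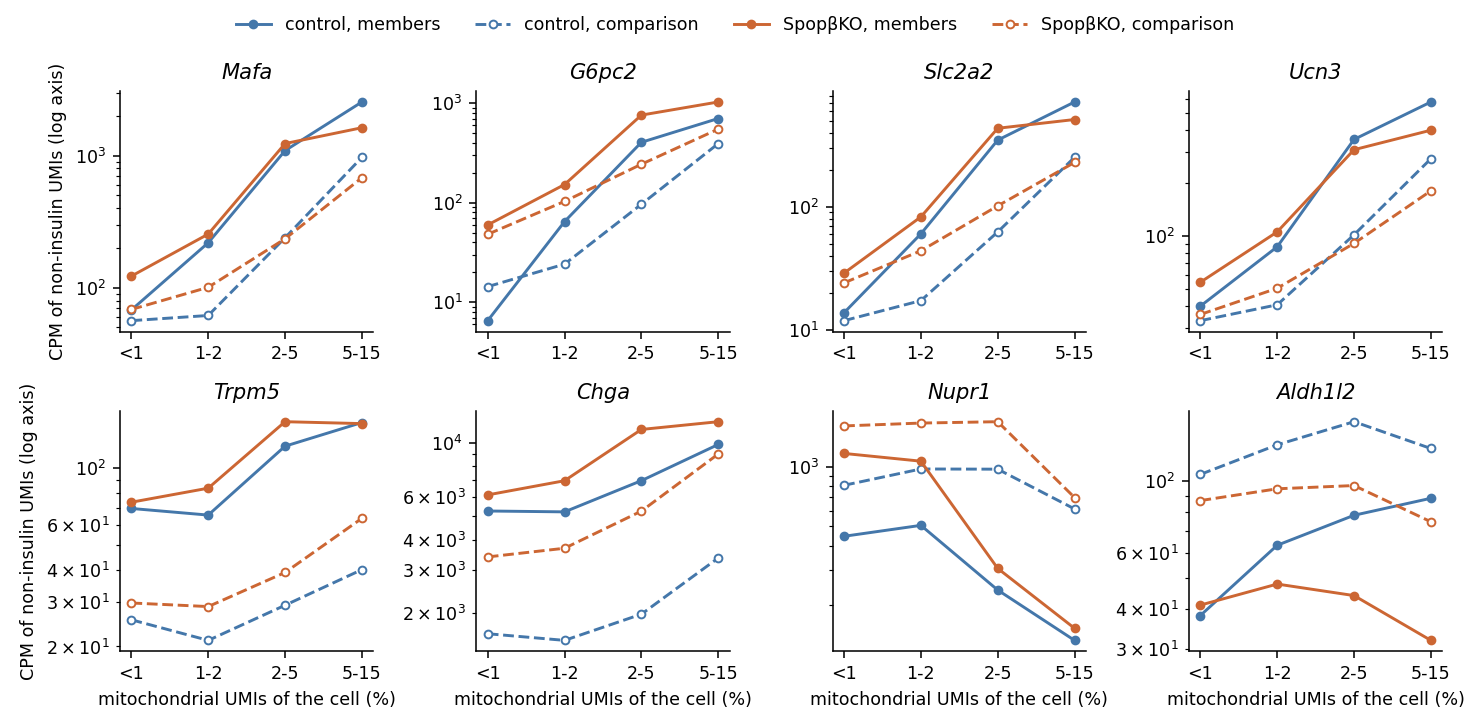
CPM of 8 genes (vertical, log axis) by the percent of mitochondrial UMIs of the cell (horizontal, 4 bins) in high-insulin cells ("members", filled points, solid lines) and comparison cells (open points, dashed lines) of the control (blue) and SpopβKO-labelled (orange) libraries. Mafa in control high-insulin cells goes from 67.9 to 2551 CPM along the axis, while the solid lines of Trpm5 and Chga lie above the dashed lines of their library in every bin.

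Depth moved with the same genes. In high-insulin cells of 5000 to 10000, 10000 to 20000 and at least 20000 UMIs the log2 ratio of Mafa was −0.28, 0.97 and 1.92 in the control library and 1.12, 2.06 and 2.26 in the other. Medians over mature beta cell markers were 0.05, 0.56 and 1.28 and 0.79, 1.30 and 1.48, and those over targets of ATF4 and CHOP were −0.62, −0.45 and −0.33 and −0.67, −0.68 and −0.63. The lower level of the ATF4 and CHOP targets was seen in every depth bin, and the higher level of Mafa was not seen in the shallowest control cells, which were 367 of the 726. In that bin G6pc2 was at 10.4 CPM in high-insulin and 37.3 in comparison cells, from 17 and 128 UMIs, a ratio of −1.84 (−2.67 to −1.11), and Ucn3 was at 47.1 and 47.8 CPM (−0.02, −0.43 to 0.38). In the deeper control bins the ratio of G6pc2 was 0.35 and 1.73 and that of Ucn3 0.67 and 1.48. The shallowest SpopβKO-labelled cells had 0.64 for G6pc2 and 1.05 for Ucn3, so the turn of G6pc2 was seen in the control library alone. The parts of depth and mitochondrial RNA in these ratios were not tested.

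The Ins1 part of insulin RNA, which the gate did not use by itself, sorted the high-insulin cells in a like way. Control high-insulin cells with Ins1 at below 5, 5 to 10, 10 to 20 and 20 to 40% of insulin UMIs numbered 183, 339, 133 and 66, and their Mafa levels were 59.5, 109.9, 295 and 2219 CPM, with 5 more cells at 40% and above. SpopβKO-labelled cells of the same bins numbered 56, 260, 350 and 437, with 422 more at 40% and above, and had Mafa at 37.3, 41.9, 107, 1149 and 1536 CPM. Nupr1 in these SpopβKO-labelled bins was at 505, 954, 1182, 618 and 88.1 CPM. High-insulin cells with a large Ins1 part were thus those with high Mafa in both libraries, and the SpopβKO-labelled library held more of them. Median mitochondrial shares also differed, from 0.733% in the first to 4.42% at 20 to 40% in the control library and from 0.666% to 4.73% in the SpopβKO-labelled bins.

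Between the libraries, 848 of 5817 genes (14.6%) were at least 1.5-fold higher and 515 (8.85%) lower in SpopβKO-labelled than in control high-insulin cells. Between the comparison cells 337 of 6067 genes (5.55%) were higher and 186 (3.07%) lower. With 1 library each, a difference between the genotypes cannot be told apart from one between the preparations. The genes with the largest lower bounds on the higher side were Dnah8, a dynein chain, with a log2 ratio of 6.58 (4.68 in comparison cells), Neb, nebulin of muscle, 5.23 (4.71), Enpp2, autotaxin, 4.0 (2.99), Fmo1, a monooxygenase, 3.96 (4.71), Gm27168 4.19 (3.88), the acinar elastase Cela1 4.26 (4.18), Cish, a suppressor of cytokine signalling, 3.93 (3.40), Gatm, of creatine synthesis, 3.65 (2.10), Rnf150 3.51 (2.61) and Igfbp5 3.57 (2.25). Enpp2 was at 62.2 CPM in control and 996 in SpopβKO-labelled high-insulin cells. Dnah8, Neb and Cela1 rested on few UMIs in the control library, at 0.689, 1.55 and 3.10 CPM. Gm27168, Cish, Gatm, Rnf150 and Igfbp5 were also low there, none above 11.5 CPM in any depth bin of high-insulin cells.

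On the lower side were the heat shock genes Hspa1a, from 88.7 in control to 8.44 CPM in SpopβKO-labelled high-insulin cells (−3.39, and −2.03 in comparison cells), and Hspa1b (−3.06 and −1.99). Mt2, a metallothionein, was at 2056 and 471 CPM (−2.13 and −0.95), and Cdkn1a, the p53 target and cell cycle inhibitor p21, at 446 and 140.3 CPM (−1.67 and −0.84). The others were Gm42418 (−2.08 and −1.55), Depp1 (−1.98 and −0.83), Rnase4 (−1.72 and −1.18), Defb1 (−1.76 and −1.41), Rhou (−1.83 and −1.34) and the mitochondrial leucyl-tRNA synthetase Lars2 (−1.64 and −1.19). Rnase4 overlaps Ang on the same strand. All 10 were lower also in comparison cells, by a smaller ratio. Within bins of mitochondrial share the ratio of Hspa1a was −3.05, −2.83, −2.43 and −2.42, that of Cdkn1a −1.01, −1.41, −1.56 and −1.17 and that of Enpp2 3.29, 2.83, 3.57 and 3.39, so these kept their direction in every bin.

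The maturity markers behaved otherwise between the libraries. Mafa was higher in SpopβKO-labelled high-insulin cells by 0.90 (0.84 to 0.96) and in comparison cells by 0.08, Ucn3 by 0.68 and −0.02, G6pc2 by 1.95 and 1.32, and Slc2a2 by 1.11 and 0.68. Within bins of mitochondrial share Mafa had ratios of 0.85, 0.22, 0.18 and −0.65 (−0.74 to −0.56), and Slc2a2 of 1.07, 0.46, 0.32 and −0.47. The median over mature beta cell markers was 0.88 over all high-insulin cells and 0.59, 0.40, 0.32 and −0.32 within the bins. The pooled excess of Mafa and Slc2a2 in SpopβKO-labelled high-insulin cells was thus absent in the cells with 5% mitochondrial UMIs or more, where it ran the other way. G6pc2 differed from them, with 3.20, 1.24, 0.91 and 0.55. Prlr, the prolactin receptor, was at 147 CPM in control and 879 in SpopβKO-labelled high-insulin cells, and within the bins its ratio was 1.32, 1.29, 1.88 and 1.49.

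Over gene lists, the median between high-insulin cells was 0.05 for all genes, with 53.7% higher in the SpopβKO-labelled library, and −0.03 with 46.8% higher between comparison cells. Past 1.5-fold higher and lower were 18.5% and 9% of genes between high-insulin cells, and 7.78% and 3.56% between comparison cells. The list median was 0.90 (0.47 between comparison cells) for beta cell transcription factors, 0.86 (0.65) for granins and granule cargo and 0.62 (0.85) for MHC class I presentation. On the lower side it was −1.02 (−0.56) for p53 targets, −0.88 (−0.53) for cytosolic heat shock and −0.39 (−0.33) for targets of ATF4 and CHOP. The study's title names the unfolded protein response. For ER chaperones the median was 0.28 (0.15) and for sensors and factors of that response 0.09 (−0.03), with Hspa5 at −0.57 (−0.43).

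**Figure D5:**
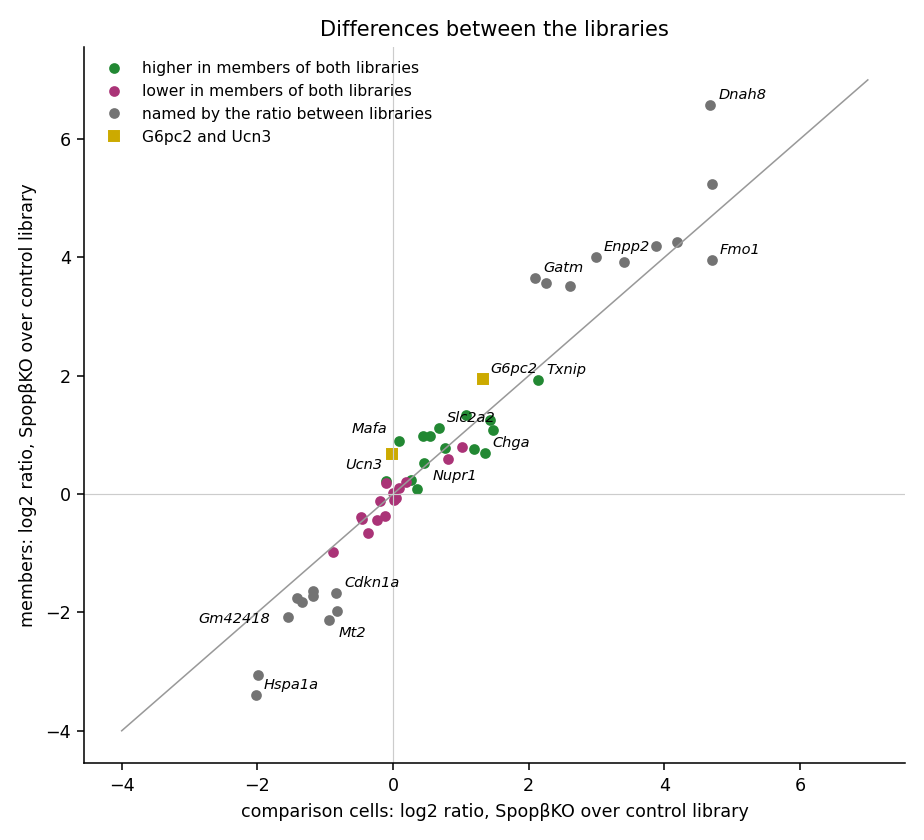
Log2 ratio of the SpopβKO-labelled to the control library in high-insulin cells ("members", vertical) and in comparison cells (horizontal), 1 point per named gene, with the line of equality in grey. Mafa lies above the line at 0.90 against 0.08 and Hspa1a under it at −3.39 against −2.03, while Chga lies under it at 0.69 against 1.35.

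Markers of other cells were not at one level in both groups. The 7 alpha cell markers that the gate did not use summed to 556 CPM in high-insulin and 317 in comparison cells of the control library, all 7 higher, and to 466 and 313 CPM in the SpopβKO-labelled library, with 4 higher and 3 lower. Gcg, which the gate used, was at 4751 and 2644 CPM and at 2994 and 1850.5 CPM. Delta cell markers outside the gate summed to 198 and 137 CPM and to 216 and 194 CPM, nearly all of it Rbp4. Of these, 1 was higher and 3 were lower in each library. Pancreatic polypeptide cell markers outside the gate summed to 119 and 146 CPM and to 358 and 320.4 CPM, mostly from Meis2. Meis2 was lower and the other 3 higher in the control library. Sst, Ppy and Pyy, which the gate used, had log2 ratios of 0.75, 0.89 and 0.96 in the control library. Those of the other library were 0.28, 0.91 and −0.22. Ghrelin cell markers summed to 224 and 242 CPM and to 230.4 and 238 CPM. Ductal markers summed to 815 and 731 CPM and to 1156 and 1069 CPM. Of these, 3 were higher and 3 lower in the control library, and 3 and 4 in the other. Krt7 and Krt19 were lower in both libraries. Lymphocyte markers summed to 41.2 and 20.4 CPM and to 7.08 and 6.03 CPM. Of these sums Cd79a alone made 40.6 and 20.3 CPM and 6.74 and 5.87 CPM. Schwann cell markers summed to 7.4 and 11.5 CPM and to 8.99 and 10.6 CPM. Macrophage markers summed to 28.9 and 8.51 CPM and to 142.5 and 73.7 CPM. In the control cells Ptprc and Adgre1 were at 0 and C1qa made 24.6 and 3.67 CPM. In the SpopβKO-labelled cells C1qa alone made 137 and 40.2 CPM, and the other 7 markers were lower in high-insulin cells. Acinar markers summed to 6.54 and 3.67 CPM in the control library and to 61.2 and 32.9 CPM in the other, nearly all of it Cela1. Endothelial markers summed to 3.79 and 22.7 CPM and to 4.22 and 6.24 CPM, with Plvap and Flt1 at 0 in the control and Cdh5 and Kdr at 0 in the SpopβKO-labelled high-insulin cells. Mesenchymal markers summed to 1.03 and 12.3 CPM and to 3.88 and 8.97 CPM, with Col1a1, Col3a1 and Pdgfrb at 0 in the control cells. The part of free RNA and of doublets in these sums was not tested.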

How the data were processed

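The data are gene by barcode tables of UMI counts, 1 for each of 2 libraries, deposited by the authors; per the file headers they come from Cell Ranger 6.0.0, and the submitters' processing notes name mm10, R 4.1.1 and Seurat 4.1.0. Cells were gated as stated above, doublets were not removed, and counts were summed over cells of a group in Python 3.11.15 (numpy 2.4.6, scipy 1.17.1, pandas 2.3.3; figures with matplotlib 3.10.9). Ratios carry exact 95% intervals for 2 Poisson counts. With 1 library per genotype no test was run. A gene counted as higher or lower at 1.5-fold and a mean of at least 25 CPM, and lists used at least 10 CPM and 3 genes. Named genes were the first 15 per side shared by both libraries and 10 per side between libraries, in order of the end of the interval that lies closer to equality, and up to 4 per list. The members and lists were chosen with earlier results of these data known. Code was tested on simulated data. Positions are from GENCODE vM21, matched by identifier for 153 of 153 genes, and promoters from RefSeq on GRCm38.p6. Other scalings, gates, limits and filters were tried, 15 set out at the start and 2 added after seeing the data.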

Additional observations from a re-analysis of the deposited data

Results flagged for a closer look

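For the following genes and lists the log2 ratio of high-insulin to comparison cells pointed in opposite directions in the 2 libraries, with 1 library each, and the difference between the libraries was not tested. Gatm, of creatine synthesis, was at −0.87 in the control library and 0.69 in the SpopβKO-labelled library, and Igfbp5, a binding protein of insulin-like growth factors, at −0.996 and 0.32. The inducible heat shock genes Hspa1a and Hspa1b were at 0.63 and 0.37 in the control library and at −0.74 and −0.69 in the other. Mt2, a metallothionein, was at 0.13 and −1.05, and Rnase4, which overlaps Ang, at 0.23 and −0.32. The median over channels of glucose-stimulated secretion was −0.11 and 0.27, and that over cholesterol synthesis −0.20 and 0.21. Over all genes the median was −0.16 and −0.07, so in the control library both lists lay close to all genes. Gatm and Hspa1a were past 1.5-fold in opposite directions. They did not reach the mean of 25 CPM in both libraries and so were not among the genes counted for that.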

How the results depend on the processing

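No paired analysis was possible because each genotype had 1 library. The cause of the shifts listed here was not tested. Counts of genes higher and lower in high-insulin than in comparison cells, 139 and 350 in the control library, were 16 and 3151 with insulin RNA in the scaling total, 236 and 191 with TMM factors, 252 and 925 with high-insulin cells at 30% or more, 334 and 1113 at 5 CPM, 2266 and 2561 with no filter on low counts, and 28 and 24 at 2-fold. The lower count alone was 769 as a mean of per-cell CPM, 632 with cells thinned to 5000 UMIs, 229 at 10000 UMIs or more, 166 with comparison cells at 10 to 20% and, added after seeing the data, 167 at 2000 genes or more. In the SpopβKO-labelled library, with 197 and 186, the counts were 39 and 2238 with insulin RNA in the scaling total, 448 and 433 at 5 CPM, 2572 and 1823 with no filter, and 53 and 29 at 2-fold. Its lower count was 376 at 30%, 97 with the limit at 15% and 97 with comparison cells at 10 to 20%. Counts shared by both libraries, 54 higher and 88 lower, were 7 and 1787 with insulin RNA in the scaling total, 105 and 252 at 30%, 32 and 53 at a limit of 15%, 128 and 239 at 5 CPM, 786 and 653 with no filter, and 10 and 10 at 2-fold. The shared lower count was 57 with TMM factors, 156 as a mean per cell, 45 with comparison cells at 10 to 20% and 57 at 2000 genes. Between the libraries, 848 higher and 515 lower were 2107 and 924 at 5 CPM, 4005 and 2685 with no filter, 297 and 97 at 2-fold, and 268 lower with insulin RNA in the scaling total.

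High-insulin cells were 24.9% and 34.2% of gated cells. At 10000 UMIs or more they were 19.4% and 35.8%, with the hormone factor at 20 32.5% and 38.4%, at a limit of 15% 33.1% and 43.2%, at 30% 15.4% and 20.9%, and at 2000 genes 17.4% and 30.4%. The median over channels in the control library was 0.0047 with TMM factors, 0.037 at 10000 UMIs, 0.047 with comparison cells at 10 to 20%, 0.021 with comparison cells weighted by mitochondrial share and 0.0035 at 2000 genes, against −0.11. With insulin RNA in the scaling total, control medians were −0.11 for prohormone processing, −0.11 for immediate early genes, −0.41 for interferon response, −0.045 for immature and −0.39 for ribosome-like lists. TMM factors gave 0.0077 for ER translocation and 0.0034 for COPII and COPI transport. With insulin RNA in the scaling total, SpopβKO-labelled medians were −0.10 for beta cell transcription factors, −0.19 for channels, −0.22 for exocytosis, −0.35 for ER chaperones, −0.37 for interferon response, −0.26 for cholesterol synthesis, −0.17 for ChREBP-responsive genes, −0.27 for immature and −0.18 for ribosome-like lists. MHC class I presentation was 0.030 as a mean per cell and the immature list −0.044 with thinned cells. With 1 library per genotype, no setting measures the spread between animals.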

Other observations

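Genes of the serotonin and pregnancy-type program, which placental lactogens and prolactin signalling induce in beta cells, differed between the libraries more than any other list. Of 7 genes measured in high-insulin cells, 6 were past 1.5-fold higher in the SpopβKO-labelled library, against 18.5% of all genes. The median over the 7 was 2.58, and that over 6 genes measured between comparison cells was 1.79. Tph1, the enzyme that starts serotonin synthesis, was at 21.8 CPM in SpopβKO-labelled and at 0 UMIs in control high-insulin cells. It stands as the highest of the 7 in the median between high-insulin cells. Within the SpopβKO-labelled library 6 of 7 were also higher in high-insulin than in comparison cells, against 39.2% of all genes, with a median of 0.88. In the control library 2 of 5 measured genes were higher, near the 31% of all genes. Chgb, chromogranin B, chosen after its values were seen, was at 1230.4 and 697.6 CPM (0.82) in high-insulin and comparison cells of the control library and at 5900.3 and 3125 CPM (0.92) in the other.

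Slc2a1, a glucose transporter that mouse beta cells use little, was lower in high-insulin cells of both libraries, at −0.93 and −1.44. Mt1, a metallothionein, was at 3698 and 4643 CPM (−0.33) in the control library and at 1376 and 3355 CPM (−1.29) in the other. Spop was at a ratio of −0.23 in the control library and 0.08 in the SpopβKO-labelled library. The 4 genes of the Spop ligase had medians of −0.33 and −0.04.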
